A study of Mus musculus with 7 samples.

Results

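Alveolar luminal (AV) cells are the milk-lineage cells that line the mammary ducts and alveoli. They were taken here as all cells that the deposited annotation assigned to the luminal-AV type, 4820 of the 13684 cells of the series. The series holds the dissociated abdominal number 4 mammary glands of 7 nulliparous females, whose background mixed FVB, 129 and C57BL/6J, namely 3 Young mice (A to C, 3 to 4 months old) and 4 Aged mice (A to D, 13 to 14 months old). All mice were taken at diestrus, no allele or agent set the groups apart, the lymph nodes were removed, red blood cells were lysed, cells were not sorted, and each mouse gave 1 droplet library of 3′ RNA tags. The Young mice gave 288, 104 and 402 AV cells and the Aged mice 860, 1446, 909 and 811. Counts of unique molecular identifiers (UMIs, 1 per captured RNA molecule) were summed over the AV cells of each mouse, so that the mouse was the replicate, and levels are given as CPM, these sums brought to a common total, after scaling by trimmed mean of M-values (TMM).

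The luminal layer of the mammary gland holds hormone-sensing (HS) cells, which carry the estrogen and progesterone receptors, and AV cells, which largely lack them and answer to prolactin and to signals sent by HS cells. Elf5 is the transcription factor that drives the alveolar programme downstream of the prolactin receptor and Stat5, and in pregnancy these cells expand and secrete caseins, whey proteins and lipid droplets. In the virgin gland they sit above contractile myoepithelial cells, and the KIT-positive luminal progenitors belong to the same lineage.

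The AV sums held between 555978 UMIs (Young B) and 10032241 UMIs (Aged B), so the values of Young B carry the most counting error. The median AV cell held 5373, 4864 and 5602.5 UMIs in the Young mice and 6711, 6407, 7796 and 7018 in the Aged mice, a difference of 1703 UMIs (exact permutation test over mice, two-sided, p = 0.029, the smallest p that 3 against 4 mice allow; adjusted over 4 such tests, 0.029). Between any of the 21 pairs of mice the AV cells shared 9 cell barcodes in all, and all cells shared 101. Cell barcodes were written in a different format for the 2 ages, and of 8728 symbols with at least 500 UMIs, 12 had at most 0.5% of them at 1 of the ages. BC018473 is an example, with 572, 819 and 2460 UMIs in the AV cells of the Young mice and 0 in every Aged mouse. Whether a difference came with age or with the handling of the libraries cannot be told apart, and p-values measure the spread between mice.

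The annotation was set beside 5 markers, namely Mfge8 (a milk fat globule protein), Trf (transferrin), Csn3 (kappa-casein), Wfdc18 (a secreted whey acidic protein family member) and Elf5. At least 3 of the 5 were detected in 92.7% of the Young and 96.0% of the Aged AV cells. The same was true of 6.81% and 3.88% of HS cells and of 8.54% and 7.13% of myoepithelial cells. No marker was detected in 11 of 794 Young and 4 of 4026 Aged AV cells. That share was 69.5% of Young and 48.3% of Aged HS cells, and 20.3% and 28.0% of myoepithelial cells. To set depth aside, each cell was also thinned to 2000 UMIs, which no cell fell short of. Trf was then detected in 71.5% to 87.8% of the AV cells of the Young mice, against 6.64% to 8.91% of their HS cells. In the Aged mice it was detected in 94.7% to 97.8% of AV and 5.91% to 18.5% of HS cells. Mfge8 was detected in 13.7% to 17.5% of Young and 16.4% to 34.8% of Aged HS cells. For Csn3 these shares were 8.42% to 9.49% and 8.18% to 32.1%, and for Wfdc18 9.82% to 20.6% and 9.09% to 25.3%. Elf5 was detected in 31.9% to 39.4% of AV cells in Young and 42.7% to 47.6% in Aged mice, against 2.13% to 3.51% and 0% to 4.35% of HS cells. The study named AV cells in these data by markers that include these 5. The match in both ages therefore describes the label and is no independent check of it.

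**Figure D1:**
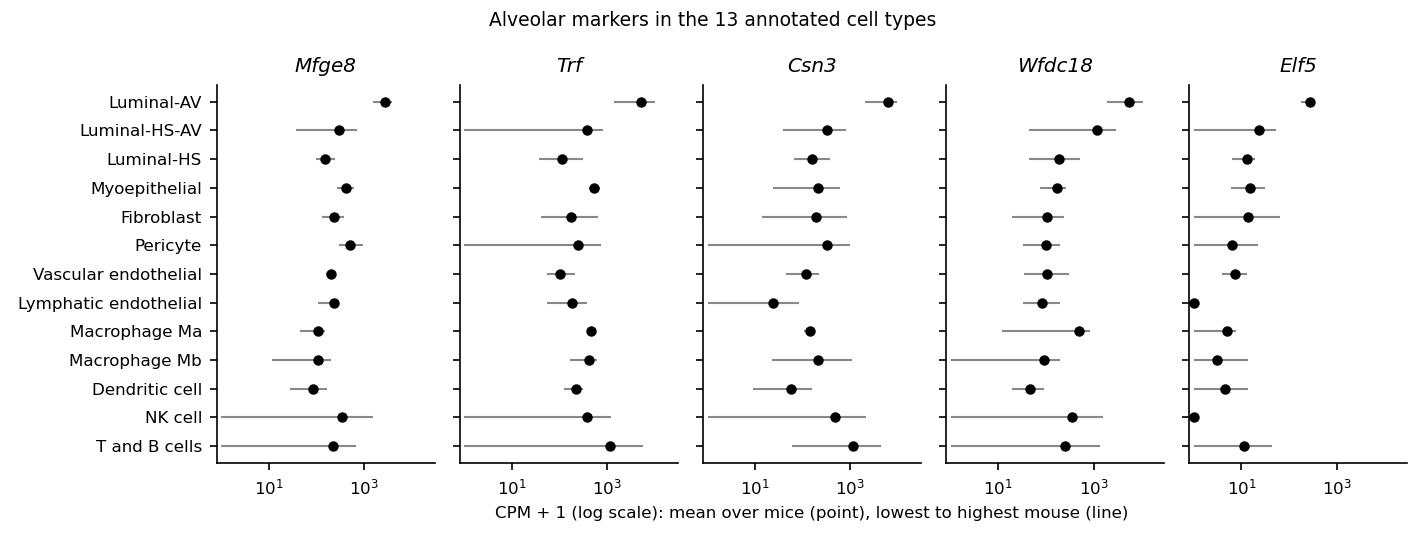
Level of the 5 alveolar markers in each of the 13 annotated cell types, as CPM + 1 on a log axis with no TMM scaling. Points are means over mice and lines run from the lowest to the highest mouse; for each marker the mean was highest in AV cells (Luminal-AV), and for Elf5 the 7 mice of that type lie above the other types.

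Among 31 luminal transcription factors, 8 had their highest mean level in AV cells, namely Elf5, Ehf, Elf3, Klf5, Barx2, Irx2, Sox10 and Tfap2a. Barx2, a homeobox factor, stood at 137 CPM in AV, 12.1 CPM in HS and 5.47 CPM in myoepithelial cells (means over 7 mice, no TMM scaling). Ehf, an epithelial ETS factor like Elf5, stood at 164 CPM in AV, 13.7 CPM in HS and 7.23 CPM in myoepithelial cells. Sox10, by contrast, was nearly as high in myoepithelial cells (50.6 CPM) as in AV cells (60.5 CPM). All 38 genes of the alveolar signature that the study drew from these cells were highest in AV cells, which is a description, since the signature was chosen on them.

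AV cells of 1 mouse also differed among themselves. The variance-to-mean ratio of UMIs over thinned cells, which is close to 1 for a gene that varies by counting alone, had a median between 1.01 and 1.04 over genes in the 7 mice. Wfdc18, Fos (an immediate early transcription factor) and Malat1 (a nuclear noncoding RNA) were among the 20 most variable genes in 7 of 7 mice and Plet1, a surface marker of luminal progenitors, in 6. The ratio was 14.7 to 24.9 for Wfdc18, 6.46 to 15.6 for Plet1, 10.9 to 19.5 for Fos and 15.8 to 30.8 for Malat1. Wfdc18 was detected in 85.6% to 97.0% of thinned AV cells in Young mice and in 44.9% to 77.5% in Aged mice. Plet1 was detected in 61.3% to 97.0% of thinned AV cells over the 7 mice.

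AV cells made up 39.9%, 20.04% and 29.1% of luminal cells in the Young mice and 83.7%, 86.5%, 90.7% and 89.4% in the Aged mice, so the ages did not overlap and differed by 57.9 percentage points (exact permutation test, p = 0.029, the smallest possible). The difference was 42.5 points as a share of epithelial cells and 44.2 points as a share of all cells. Shares of dissociated cells depend on what the digestion released. The median AV cell drew 3.93%, 3.82% and 2.99% of its UMIs from mitochondrial genes in the Young and 2.17%, 2.32%, 2.38% and 2.12% in the Aged mice, a decrease of 1.33 points (p = 0.029, exact permutation test). The deposited cell cycle call placed 80.9%, 59.6% and 58.5% of AV cells in S or G2M phase in the Young and 51.6%, 56.3%, 53.9% and 55.1% in the Aged mice. That difference of -12.1 points (exact permutation p = 0.029) became -4.80 points without Young A. By phase, the S share overlapped between the ages, at 31.8% to 65.6% in the Young and 40.9% to 48.6% in the Aged mice. The G2M share did not, at 15.3% to 26.6% and 6.54% to 11.2%. Cells with a UMI of Mki67 or Top2a, which mark dividing cells, were 8.33%, 1.92% and 2.99% of Young and 1.98%, 1.80%, 2.64% and 3.45% of Aged AV cells, groups that overlap (difference -1.95 points, exact permutation p = 0.34), with the deeper cells in the Aged mice. With each cell thinned to 2000 UMIs the shares were 2.78%, 1.92% and 0.995% in the Young and 0.581%, 0.484%, 0.330% and 0.986% in the Aged mice, which did not overlap (difference -1.30 points, exact permutation p = 0.029). The nearest pair, Young C and Aged D, was almost equal. The thinned shares came from 1 random draw and rest on few cells. Before thinning, 24, 2 and 12 Young and 17, 26, 24 and 28 Aged AV cells had such a UMI. Both tests of these shares lie outside the 4 that were adjusted together.

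Of 11010 genes tested in AV cells, 317 (2.88%) were higher and 357 (3.24%) lower in Aged than in Young mice at an adjusted p under 0.05 and at least 1.5-fold (edgeR quasi-likelihood test, Benjamini-Hochberg adjustment). The median log2 fold change over all tested genes was 0.02. The groups did not overlap in 313 of the higher and 346 of the lower genes, beside 22.3% of all tested genes. The numbers moved with single mice, to 60 higher and 138 lower without Young C, 104 and 175 without Young A, and 123 and 161 without Aged C. Of the called genes, 50 of the higher and 17 of the lower had ribosomal, pseudogene-like or clone-type symbols, whose reads can be split between near-identical copies, and they are not named here. Through all alternatives of the processing in which they could be tested, 37 of the higher and 105 of the lower genes stayed called. The lower genes met fewer tests. With equal totals of UMIs 232 of the 317 higher but 109 of the 357 lower genes could be tested, and with G1 cells alone 307 and 248. The 2 counts therefore do not compare the stability of the directions.

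The cell type of the highest level was taken for each called gene at the age where it was higher. Of the 317 higher genes, 93 (29.3%, against 5.47% of all tested genes) had their highest level of any cell type in Aged AV cells. These genes were selected for a high level in Aged AV cells, so that share is not independent of the call. Another 21 (6.62%, against 13.5%) stood there at under 10% of their level in another type. Of the 357 lower genes, 9 (2.52%, against 5.78%) had their highest level in Young AV cells. In contrast, 191 (53.5%, against 11.4% of all tested genes) stood in Young AV cells at under 10% of their level in another cell type. That other type was most often the fibroblast (76 genes), the HS cell (24) or the vascular endothelial cell (19). Summed markers of other types moved with age inside the AV cells. The 10 HS markers summed to 841, 871 and 811 CPM in the Young and to between 122 and 224 CPM in the Aged mice, and 7 of the 10 were called lower. The 10 fibroblast markers summed to 777, 221 and 757 CPM in the Young and to 40.0 to 111 CPM in the Aged mice, all 10 called lower. Macrophage and dendritic cell markers summed to 219 to 295 CPM in the Young and 19.4 to 96.9 CPM in the Aged mice (9 of 11 lower), and endothelial and pericyte markers to 249.6 to 673 CPM and 44.3 to 83.1 CPM (4 of 8 lower). Myoepithelial markers overlapped between the ages, at 60.3 to 203 CPM and 66.4 to 153 CPM, with 0 of 9 called by edgeR (2 lower at an unadjusted p under 0.05, 0 called by DESeq2). In the suspension as a whole HS cells were 24.7% of cells in Young and 7.75% in Aged mice, fibroblasts 28.2% and 2.65%, and myoepithelial cells 4.41% and 19.0%. The part of RNA from other cell types in the lower genes was not tested.

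**Figure D2:**
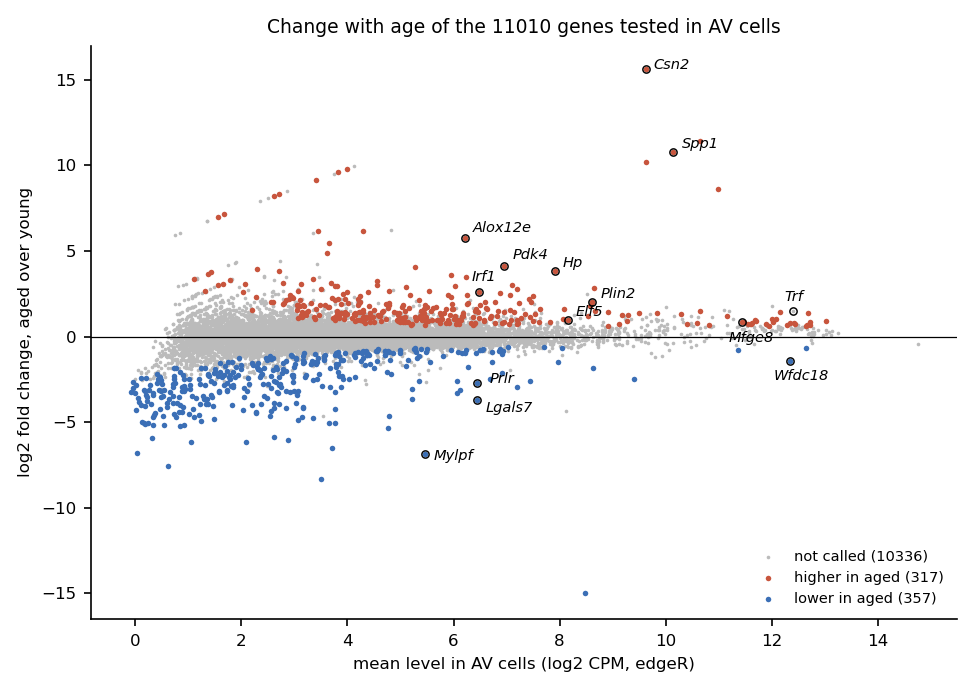
Change with age of each of the tested genes in AV cells (vertical axis, log2 fold change, Aged over Young) against its mean level (horizontal axis, log2 CPM as edgeR gives it). Of the coloured genes, 317 were called higher (red) and 357 lower (blue); the lower genes gather at low levels, and named genes are ringed.

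Of 36 genes of lipid handling tested, 4 were called higher (11.1%, against 2.88% of all genes) and 3 lower (8.33%, against 3.24%), with a median log2 fold change of 0.20 beside 0.02 for all genes. Pdk4, the kinase that shuts pyruvate dehydrogenase and so spares glucose carbon when fatty acids are burned, stood at 12.6, 16.5 and 7.92 CPM in the Young and 299.8, 143, 145 and 216 CPM in the Aged mice. Its lowest Aged mouse was far above its highest Young mouse, and the log2 fold change was 4.14 ± 0.38 (SE; adjusted p = 0.000628, edgeR). Plin2, which coats cytoplasmic lipid droplets and the milk fat globule, stood at 133, 164 and 134 CPM in the Young and 594, 383, 570.3 and 746 CPM in the Aged mice (log2 fold change 2.01 ± 0.24, adjusted p = 0.00184). Plin2 was detected in 22.6% to 33.7% of thinned AV cells in Young and 46.8% to 61.5% in Aged mice. Gdpd3, a lysophospholipase D, rose from 33.8, 43.0 and 37.7 CPM to 151, 131, 255 and 269 CPM (log2 fold change 2.42 ± 0.30, adjusted p = 0.00198). Srebf1, the transcription factor of fatty acid and sterol synthesis genes, rose from 15.6, 21.5 and 19.2 CPM to 37.6, 37.7, 37.2 and 46.4 CPM (log2 fold change 1.11 ± 0.20, adjusted p = 0.0124), a call that held in 12 of 17 alternatives. In Aged mice, without TMM scaling, Gdpd3 stood at 183 CPM in AV cells beside 670 CPM in pericytes. Pdk4, Plin2 and Srebf1 were highest in AV cells, Plin2 by little (523 CPM beside 504 CPM in the macrophages annotated Mb).

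Angptl4, a secreted inhibitor of lipoprotein lipase that lies outside the list above and was named through the comparison with myoepithelial cells, stood at 38.8, 95.8 and 33.6 CPM in the Young and 296, 137, 279 and 359 CPM in the Aged mice. Every Aged mouse exceeded the Young mice, with a log2 fold change of 2.35 ± 0.43 (edgeR adjusted p = 0.0119). The 3 lipid genes that fell have their main site elsewhere. Cd36, a fatty acid transporter, fell from 18.9 to 54.5 CPM to 2.44 to 4.92 CPM, and Fabp4, a fatty acid carrier of adipocytes and endothelium, from 165 to 483 CPM to 23.2 to 54.6 CPM. Both were highest in vascular endothelial cells, whose markers fell in the AV sums as given above. Scd2, a fatty acid desaturase, had a log2 fold change of -2.09. Alox12e, an epidermal lipoxygenase that oxidises arachidonic acid, rose the most among the named genes that were called higher and are not milk genes. It stood at 3.53, 4.96 and 0.377 CPM in the Young and 131, 153, 87.6 and 111 CPM in the Aged mice (log2 fold change 5.75 ± 0.50, adjusted p = 0.000604, edgeR). Alox12e was detected in 0% to 0.694% of thinned Young and 8.26% to 16.2% of thinned Aged AV cells.

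**Figure D3:**
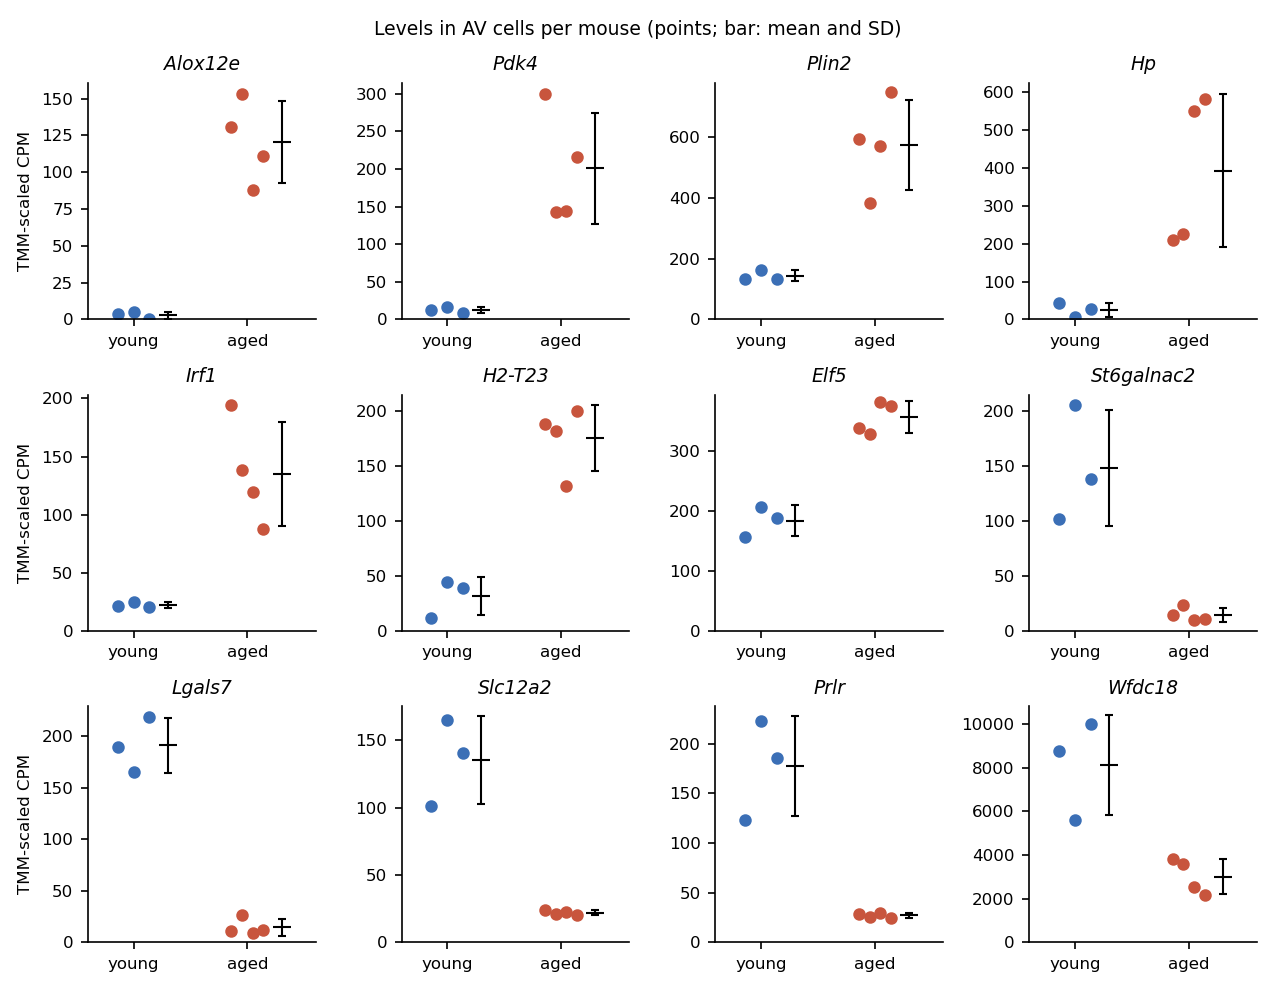
Level of 12 genes in the AV cells of each mouse (points, CPM) at the 2 ages, with the mean of each age. Alox12e, Pdk4, Plin2, Hp, Irf1, H2-T23 and Elf5 lie higher in the 4 Aged mice and St6galnac2, Lgals7, Slc12a2, Prlr and Wfdc18 lower, with no overlap between the ages in any of the 12.

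The alveolar identity genes themselves shifted by small factors and not all in 1 direction. Elf5 stood at 156, 207 and 188 CPM in the Young and 338, 329, 382 and 375 CPM in the Aged mice, 1.95-fold higher (log2 fold change 0.96 ± 0.18, adjusted p = 0.0122, edgeR). The Elf5 call held in 15 of 17 alternatives and was lost without Young C and with the letters of the mice as a block. Csn3 stood at 1787, 5119.7 and 3362 CPM in the Young and 9318, 5816, 10657 and 10087 CPM in the Aged mice (log2 fold change 1.39 ± 0.33, adjusted p = 0.0365), a call that held in 9 of 17 alternatives. Mfge8 stood at 1331, 2097 and 2166 CPM and at 3355, 3413, 2631 and 4296 CPM (log2 fold change 0.88 ± 0.23, adjusted p = 0.0477) and held in 4 of 17. Trf, at 1229, 3829 and 2876 CPM in the Young and 8299, 4684, 5498 and 11250.0 CPM in the Aged mice, missed the threshold (log2 fold change 1.49 ± 0.40, adjusted p = 0.0533). Wfdc18 moved the other way, from 8771, 5584 and 10022 CPM to 3806, 3572, 2524 and 2158 CPM, and was 2.7-fold lower (log2 fold change -1.43 ± 0.25, adjusted p = 0.00994), a call lost without Young C. Of the 38 signature genes 14 were higher (36.8%, against 2.88% of all genes) and 1 lower (2.63%, against 3.24%), with a median of 0.64. The study chose them on these cells, so their direction is not independent evidence. Of 12 luminal progenitor genes 0 were called higher by edgeR (1 at an unadjusted p under 0.05, 0 by DESeq2) and 1 lower (8.33%, against 3.24% of all genes), Ly6d, a surface antigen (log2 fold change -1.46, adjusted p = 0.0114; 2 lower by DESeq2). Ly6d stood at 442 CPM in Young AV cells beside 5475 CPM in Young HS cells, without TMM scaling. Kit (-0.37), Aldh1a3 (-0.77) and Cd14 (-0.04), genes of luminal progenitors, and the luminal keratins Krt8 (0.22) and Krt18 (0.12) did not pass the test. Of 30 luminal transcription factors 1 was higher, Elf5 (3.33%, against 2.88% of all genes), and 2 were lower (6.67%, against 3.24%). The lower ones were Tbx3 (log2 fold change -2.68), which is needed for duct formation, and Id3 (-1.47), an inhibitor of helix-loop-helix factors. In Young mice Tbx3 was highest in the cells annotated as both HS and AV, and Id3 in lymphatic endothelial cells.

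Secreted and surface proteins other than the milk proteins also changed. Of 17 secreted defence proteins 3 were higher (17.6%, against 2.88% of all genes) and 2 lower (11.8%, against 3.24%), with a median of 1.08. Hp, haptoglobin, which binds free haemoglobin, stood at 42.9, 6.61 and 26.4 CPM in the Young and 209, 226, 552 and 584 CPM in the Aged mice (log2 fold change 3.83 ± 0.56, adjusted p = 0.00377, edgeR). Lcn2, which withholds iron from bacteria by binding their siderophores, rose from 1843, 3193 and 2784 CPM to 6235, 4233, 4484 and 5923 CPM (log2 fold change 1.00 ± 0.23, adjusted p = 0.0297). Fcgbp, a protein of mucus, rose from 482, 337 and 209 CPM to 1018, 872, 681 and 737 CPM. The call held in 17 of 17 alternatives for Hp, in 10 for Lcn2 and in 11 for Fcgbp. In Aged mice, without TMM scaling, Hp stood at 356 CPM in AV cells beside 688 CPM in HS cells, while Lcn2 and Fcgbp were highest in AV cells. Lyz2, lysozyme, highest in macrophages, was lower (log2 fold change -3.90), beside the fall of macrophage markers given above.

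Of 21 genes of apical transport and junctions 1 was higher, Muc15 (4.76%, against 2.88% of all genes), and 3 were lower (14.3%, against 3.24%). The lower ones were Slc12a2 (log2 fold change -2.62), Slc7a2, a cationic amino acid transporter (-2.36), and Prom1, a protein of apical protrusions (-2.08, held in 9 of 16 alternatives). In Young mice Slc12a2, Slc7a2 and Prom1 were highest in HS cells. Muc15, a mucin of the milk fat globule membrane, stood at 72.6, 85.9 and 53.2 CPM in the Young and 209, 199, 207 and 144 CPM in the Aged mice (log2 fold change 1.45 ± 0.23, adjusted p = 0.00533, edgeR). Cel, the bile salt-stimulated lipase that is also found in milk, rose from 4.54, 1.65 and 3.39 CPM to 45.0, 16.3, 49.2 and 27.7 CPM (log2 fold change 3.26 ± 0.50). Ceacam10, a secreted member of the carcinoembryonic antigen family, rose from 5.04, 3.31 and 2.26 CPM to 100.3, 18.6, 46.8 and 72.2 CPM (log2 fold change 4.08 ± 0.66). Anxa8, a calcium-dependent membrane-binding annexin, rose from 3.03, 18.2 and 14.0 CPM to 58.0, 78.4, 58.3 and 75.9 CPM (log2 fold change 2.68 ± 0.42). All 4 separated the ages, and Muc15, Cel and Anxa8 were each highest in AV cells and called in every alternative. Of the milk protein genes, 8 of 15 were higher (53.3%, against 2.88% of all genes) and 1, Wfdc18, lower (6.67%, against 3.24%), with a median of 1.66. Csn2, beta-casein, was at 0 UMIs in every Young mouse and at 1835, 1.73, 3146 and 489 CPM in Aged A to D, at least 1791-fold higher over the pooled groups against a floor of 3 counts. Of its 33828 UMIs in Aged AV cells 20717 came from Aged C, and the call was lost without any 1 of the Young mice (adjusted p up to 0.127, edgeR). Csn2, Csn1s1, Csn1s2a and Spp1 were also among the 12 symbols seen almost wholly at 1 age. Spp1, osteopontin, stood at 0.504, 0 and 1.89 CPM in the Young and 3552, 269, 1087 and 2969.8 CPM in the Aged mice.

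Antigen presentation, interferon and NF-kB genes changed in part. Over all tested genes 2.88% were higher and 3.24% lower. By edgeR, 6 of 19 MHC class I presentation genes were higher (31.6%) and 0 lower (median 0.53; 1 lower at an unadjusted p under 0.05, 0 by DESeq2). Of 26 interferon response genes 3 were higher (11.5%) and 0 lower (median -0.02), with 4 lower at an unadjusted p under 0.05 and 1 by DESeq2. Of 21 NF-kB targets and feedback genes 4 were higher (19.0%) and 1 lower (4.76%), with a median of 0.91. Irf1, a transcription factor that interferon gamma and NF-kB induce, stood at 21.7, 24.8 and 20.4 CPM in the Young and 195, 138, 119.8 and 87.4 CPM in the Aged mice (log2 fold change 2.62 ± 0.30, adjusted p = 0.0013). Ifit1, an interferon-induced protein that binds foreign RNA, stood at 6.05, 11.6 and 7.92 CPM in the Young and 54.1, 18.4, 219 and 94.2 CPM in the Aged mice (log2 fold change 3.62 ± 0.81, adjusted p = 0.029). Cxcl10, a chemokine that draws T cells, stood at 10.1, 8.26 and 17.3 CPM and at 29.9, 169, 139.8 and 57.1 CPM (log2 fold change 2.95 ± 0.61, adjusted p = 0.0206). Ifit1 and Cxcl10 spread widely among the Aged mice and held in 12 of 17 alternatives each, while Irf1 held in 17 of 17. In Aged mice, without TMM scaling, Cxcl10 stood at 92.3 CPM in AV cells beside 4384 CPM in the macrophages annotated Mb. Ifit1 stood at 86.9 CPM beside 2196 CPM in Mb macrophages, and Irf1 at 125 CPM beside 440 CPM in lymphatic endothelial cells. The part of RNA from other cell types in these genes was not tested. Of the best known members, Isg15 (log2 fold change 2.14, adjusted p = 0.054, edgeR) did not pass, and the median of the interferon list was near that of all genes.

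H2-T23, a nonclassical class I molecule (Qa-1) that NK cells read, stood at 12.1, 44.6 and 39.2 CPM in the Young and 189, 182, 132 and 200.02 CPM in the Aged mice (log2 fold change 2.52 ± 0.38, adjusted p = 0.00462, edgeR). H2-Q7, another nonclassical molecule, rose from 51.4, 51.2 and 17.7 CPM to 227, 122, 141 and 144 CPM (log2 fold change 2.04 ± 0.38). H2-Q4 (log2 fold change 2.18), H2-Q6 (2.45), H2-Q10 (3.93) and the classical H2-D1 (1.33) were also higher, although Aged B overlapped the Young mice for H2-Q6 and H2-D1. H2-K1 (1.05) and B2m (1.23), the classical chain and its shared light chain, did not pass. Class I genes are near copies of each other and strain-dependent, so reads can be assigned to the wrong member, and single members are uncertain. H2-T23 changed alike in other epithelial types, with log2 fold changes of 2.75 in HS and 2.21 in myoepithelial cells. Among NF-kB targets, Icam1, an adhesion molecule for leukocytes, stood at 52.9, 36.4 and 13.2 CPM in the Young and 446, 146, 220.3 and 91.1 CPM in the Aged mice (log2 fold change 2.75 ± 0.60, adjusted p = 0.0261). Birc3, an inhibitor of apoptosis (log2 fold change 2.01), Relb, an NF-kB subunit (1.64), and Cxcl16, a membrane-bound chemokine (1.58), were higher too. Icam1, Birc3, Relb and Cxcl16 each had a higher level in another cell type of Aged mice. For Icam1 it was 1598 CPM in vascular endothelial cells beside 209.5 CPM in AV cells, without TMM scaling. Il1b, the interleukin made by macrophages, was lower (-5.24), from 3.77 to 14.9 CPM to at most 0.204 CPM.

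The 250 bases before the transcription start of 5 of these genes are shown because they carry the letters that interferon-activated or NF-kB factors are known to read (RefSeq, mouse build GRCm38.p6). Capitals mark matches on either strand to 3 motifs: GAAA, any 2 bases and GAAA (the interferon-stimulated response element, ISRE), TTC, any 3 bases and GAA (the gamma-activated site, GAS), or GGGA, any 2 bases and TTCC (an NF-kB site). No 2 of the matches overlap.
Ifit1, chr19:34640639-34640888, plus strand: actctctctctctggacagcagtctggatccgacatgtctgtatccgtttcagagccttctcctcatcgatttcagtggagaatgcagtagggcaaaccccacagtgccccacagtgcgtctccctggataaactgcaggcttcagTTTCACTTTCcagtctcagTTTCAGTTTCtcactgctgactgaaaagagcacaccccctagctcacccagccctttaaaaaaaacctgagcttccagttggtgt
Cxcl10, chr5:92348890-92349139, minus strand: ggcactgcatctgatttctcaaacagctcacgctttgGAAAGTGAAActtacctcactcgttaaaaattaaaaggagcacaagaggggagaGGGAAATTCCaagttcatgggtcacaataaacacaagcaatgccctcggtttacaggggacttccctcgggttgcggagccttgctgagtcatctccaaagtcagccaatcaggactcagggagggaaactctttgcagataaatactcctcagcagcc
Irf1, chr11:53769764-53770013, plus strand: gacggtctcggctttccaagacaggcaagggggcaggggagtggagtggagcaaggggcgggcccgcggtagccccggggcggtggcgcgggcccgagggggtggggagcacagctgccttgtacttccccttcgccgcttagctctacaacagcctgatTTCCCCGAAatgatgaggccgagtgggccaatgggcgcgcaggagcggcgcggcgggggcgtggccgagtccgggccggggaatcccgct
H2-T23, chr17:36032702-36032951, minus strand: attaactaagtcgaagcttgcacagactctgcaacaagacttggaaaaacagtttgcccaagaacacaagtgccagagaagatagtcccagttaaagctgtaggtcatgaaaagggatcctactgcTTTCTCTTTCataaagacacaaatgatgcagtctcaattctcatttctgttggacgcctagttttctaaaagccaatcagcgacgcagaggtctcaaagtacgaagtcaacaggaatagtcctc
Icam1, chr9:21015690-21015939, plus strand: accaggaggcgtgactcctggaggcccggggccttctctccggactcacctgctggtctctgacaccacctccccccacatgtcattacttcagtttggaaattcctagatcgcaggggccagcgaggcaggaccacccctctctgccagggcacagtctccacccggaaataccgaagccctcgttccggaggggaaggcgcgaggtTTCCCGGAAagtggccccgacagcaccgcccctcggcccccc
Ifit1 held a pair of ISRE matches (104 to 95 and 85 to 76 bases before the start), Cxcl10 an ISRE (213 to 204) and an NF-kB match (159 to 150), Irf1 a GAS (90 to 82, at 1 of its 2 listed starts), H2-T23 an ISRE (124 to 115) and Icam1 a GAS (42 to 34). Over 32851 distinct promoters of the same length (1 chromosome was not used here) the ISRE letters occurred in 2.98%, the GAS letters in 7.02% and the NF-kB letters in 1.21%. Over the promoters of genes called higher in Aged AV cells the shares were 3.87%, 7.39% and 1.41%. For genes called lower they were 4.58%, 5.88% and 1.31%, and for all tested genes 2.44%, 5.94% and 1.31%. H2-Q4, H2-Q6, H2-Q7, H2-D1 and Birc3 held no match in this window. These are matches of letters and were not tested as binding sites.

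Of the genes of stress response, few were called. Of 23 immediate early genes 2 were higher (8.70%, against 2.88% of all genes), led by Gadd45b, a stress sensor of the p38 pathway, at 98.8, 159 and 167 CPM in the Young and 455, 574, 606 and 648 CPM in the Aged mice (log2 fold change 2.02 ± 0.24, adjusted p = 0.00155, edgeR). Gadd45b was also higher in HS (log2 fold change 1.39) and myoepithelial cells (1.01). Of 18 heat shock proteins 1 was higher (5.56%), the constitutive chaperone Hspa8, at 2040.1, 2485 and 1805 CPM and at 3885, 3842, 4549.9 and 4507 CPM (log2 fold change 0.99 ± 0.17). Among 27 genes of oxidative stress and iron storage, Oser1 (log2 fold change 1.43) and Cbr2, a carbonyl reductase (2.99), were higher (7.41% of the list) and Gpx3, a secreted glutathione peroxidase highest in HS cells, lower (-2.46). Oser1 stood at 56.5, 66.1 and 62.6 CPM in the Young and 178, 149, 186 and 148 CPM in the Aged mice. Of 28 genes of the endoplasmic reticulum 1 was higher, Herpud1 (1.49), a stress-induced degradation factor, and 1 lower, Dad1 (-0.59), a subunit of the glycosylation complex. That is 3.57% each, near the 2.88% and 3.24% of all genes. The Herpud1 call held in 9 and the Dad1 call in 5 of 17 alternatives.

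Of 19 translation factors 5 were higher (26.3%, against 2.88% of all genes) and 0 lower by edgeR (median 0.54), with 0 lower also at an unadjusted p under 0.05 and by DESeq2. Eef2, which moves the ribosome along the message, rose from 1231, 1254 and 1415 CPM to 3260.0, 2788, 3019.9 and 3048 CPM (log2 fold change 1.22 ± 0.15, adjusted p = 0.00207, edgeR), and Eif4b, a cofactor of the initiation helicase, rose with it (1.11 ± 0.17). Of 92 ribosomal protein genes 16 were higher (17.4%) and 0 lower by edgeR (median 0.48; 1 lower at an unadjusted p under 0.05 and 1 by DESeq2), with the caution on shared reads given above. Of 96 nuclear genes of oxidative phosphorylation 0 were higher by edgeR (4 at an unadjusted p under 0.05, 0 by DESeq2) and 4 lower (4.17%, against 3.24% of all genes; median -0.22). Of 13 mitochondrially encoded proteins 2 were lower (15.4%; median -0.47), mt-Cytb at -0.77 and mt-Atp6 at -0.69. All 18 proliferation genes tested had a log2 fold change below 0 (median -0.63), but 1 (5.56%), Ube2s, passed (-0.64), a call that held in 6 of 17 alternatives. Of 18 cell cycle inhibitors and p53 targets 0 were called in either direction by edgeR (4 higher and 1 lower at an unadjusted p under 0.05, 0 called by DESeq2). Of 10 keratins 0 were called by edgeR (2 lower at an unadjusted p under 0.05, 1 lower by DESeq2). Among 11 EGF family ligands and receptors Areg and Nrg4 were lower (18.2%, against 3.24% of all genes). Cdkn1a, the p21 inhibitor induced in senescent cells, had a log2 fold change of -0.13.

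**Figure D4:**
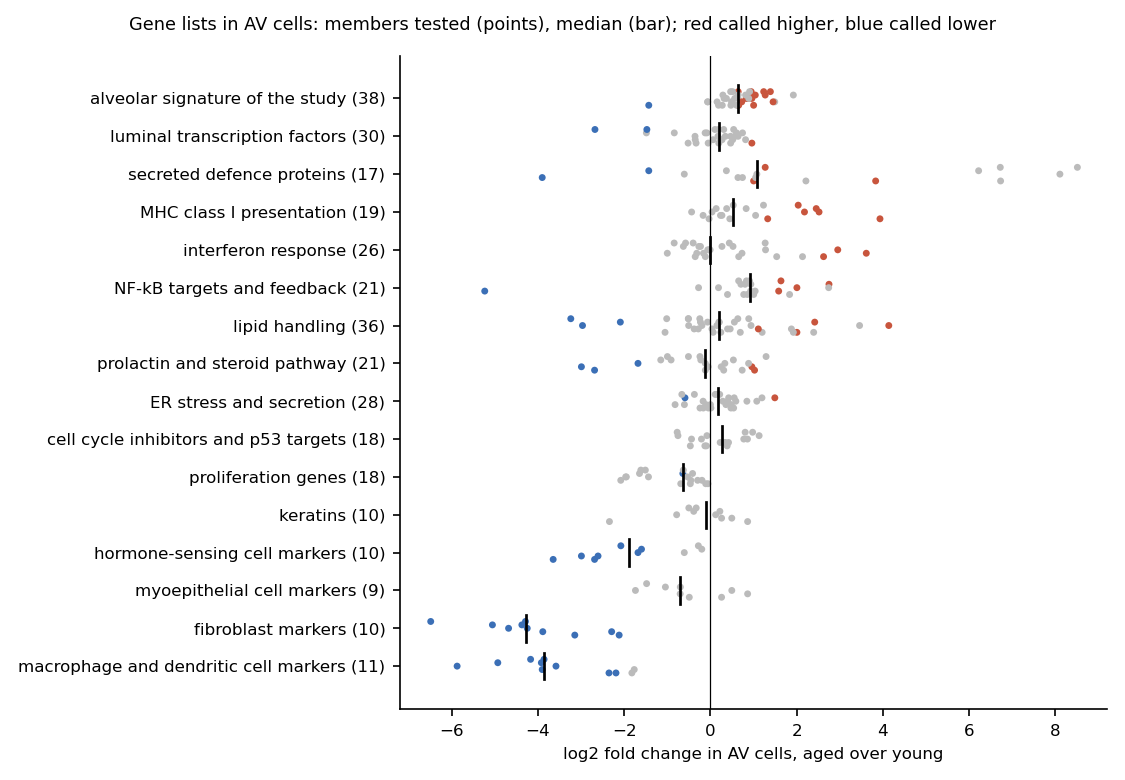
Log2 fold change, Aged over Young, of the tested members of 16 gene lists in AV cells (points; the number tested in brackets), with each list's median as a bar. Red members were called higher and blue lower; fibroblast markers have a median of -4.27, hormone-sensing cell markers of -1.88 and NF-kB targets of 0.91.

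Among the genes lower in Aged AV cells were receptors and signals of the hormone axis, which are highest in HS cells or in the small class annotated as both HS and AV. Prlr, the prolactin receptor, stood at 124, 223 and 186 CPM in the Young and 28.5, 26.1, 29.9 and 24.7 CPM in the Aged mice (log2 fold change -2.69 ± 0.22, adjusted p = 0.000377, edgeR), and was detected in 14.6% to 26.0% of thinned Young and 4.07% to 5.58% of thinned Aged AV cells. Pgr, the progesterone receptor (log2 fold change -2.99), and Esr1, the estrogen receptor (-1.68), were lower as well. Areg, the EGF receptor ligand that HS cells release, stood at 82.7, 51.2 and 115 CPM and at 5.27, 8.86, 9.11 and 3.32 CPM (log2 fold change -3.65 ± 0.36). Slc12a2, the sodium-potassium-chloride cotransporter, stood at 101, 165 and 140.3 CPM and at 24.2, 20.8, 22.3 and 20.1 CPM (log2 fold change -2.62 ± 0.20, adjusted p = 0.000329). These are HS-enriched genes, and over the same mice the summed HS markers in AV cells went from 5.93% to 0.931% of their level in HS cells. In the other direction Cish, the feedback inhibitor that Stat5 induces, was higher (1.02).

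St6galnac2 and Lgals7 were lower without being highest in HS cells or fibroblasts. St6galnac2, a sialyltransferase of O-linked sugars and highest in AV cells, stood at 101, 205 and 138 CPM in the Young and 14.1, 23.9, 9.87 and 10.5 CPM in the Aged mice (log2 fold change -3.30 ± 0.35, adjusted p = 0.000915, edgeR). It was detected in 19.1% to 27.9% of thinned Young and 1.32% to 5.53% of thinned Aged AV cells. Lgals7, a galectin of stratified epithelia and highest in myoepithelial cells, stood at 189, 165 and 219 CPM and at 10.7, 26.7, 9.11 and 12.2 CPM (log2 fold change -3.69 ± 0.35, adjusted p = 0.000645). Myoepithelial markers as a list overlapped between the ages in AV cells, as given above, and Lgals7 was itself lower in Aged myoepithelial cells (log2 fold change -1.28). Gpc6, a cell surface heparan sulfate proteoglycan, stood at 24.7, 101 and 91.6 CPM in the Young and 3.34, 4.48, 1.06 and 1.85 CPM in the Aged mice (log2 fold change -4.65). Its level in Young fibroblasts, the type where it was highest, was 106 CPM without TMM scaling, beside 79.5 CPM in Young AV cells.

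Of 31 genes of matrix and adhesion 1 was higher, Anxa8 (3.23%, against 2.88% of all genes), and 6 lower (19.4%, against 3.24%), with a median of -0.24. Among the lower ones were Fn1, fibronectin (log2 fold change -4.49), and Sparc (-3.09), a collagen-binding protein, both highest in fibroblasts. Sparc stood at 122, 62.8 and 54.7 CPM in the Young and 11.4, 7.33, 10.8 and 8.496 CPM in the Aged mice. A pair of lower genes rested on 1 mouse. Mylpf, a myosin light chain of skeletal muscle, stood at 409.8 CPM in Young B and at 1.89 CPM or less in the other mice, and its log2 fold change of -6.85 became -0.69 without Young B. Hbb-bs, beta-globin, stood at 256 CPM in Young B and at 9.08 CPM or less elsewhere, and its -5.33 became -2.15, no longer called, without that mouse.

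The change in AV cells was then compared with the change in HS cells of the same mice, in an edgeR fit with the mouse as a block and 1 TMM scaling over both types. The HS sums held 422, 285 and 864 cells in the Young and 162, 220, 93 and 92 in the Aged mice. Of 9837 genes tested, 63 (0.64%) had a higher and 172 (1.75%) a lower change in AV than in HS cells. These included Elf5, which stood at 13.3, 16.9 and 15.7 CPM in HS cells of the Young and 5.60, 6.17, 4.99 and 15.8 CPM in those of the Aged mice, and whose change was higher in AV cells by 1.94 ± 0.32 (SE, log2; adjusted p = 0.00177). Irf1 stood at 31.9, 29.8 and 25.4 CPM and at 51.8, 21.6, 32.4 and 27.9 CPM in HS cells, ages that overlap, and its change was higher in AV cells by 2.43 ± 0.28 (adjusted p = 6.09e-05). For Plin2 the HS values were 27.5, 25.9 and 25.8 CPM and 22.4, 23.1, 22.5 and 58.3 CPM, and the difference of changes was 1.81 ± 0.27 (adjusted p = 0.000704). Pdk4 (2.46 ± 0.54), Angptl4 (2.77 ± 0.42), Folr1, a folate receptor (2.27 ± 0.33), and Ceacam10 (4.08 ± 0.44) also changed more in AV cells. Of 306 higher AV genes tested in this fit, 32 had a higher change than in HS cells, while 71 of the 245 that could be tested in HS cells alone were called higher there too.

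Alox15, a lipoxygenase of fatty acids, changed in opposite directions. It stood at 2.02, 0 and 6.03 CPM in Young and 20.4, 35.5, 14.9 and 15.3 CPM in Aged AV cells, and at 18.3, 35.3 and 77.1 CPM in Young and 2.10, 5.14, 1.247 and 8.498 CPM in Aged HS cells. It was called higher in AV cells (log2 fold change 2.58) and lower in HS cells (-3.37), with a difference of 6.20 ± 0.52 (edgeR adjusted p = 1.35e-06). Saa1, an acute phase protein, had 3 UMIs in Young AV cells and 1025 in Aged ones, 0 of them in Aged B, beside 29 and 3 UMIs in HS cells, a difference of 8.16 ± 1.01 that depends on these low counts. Ttc36 (4.64) and Spp1 (4.96) also changed more in AV cells.

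Among the lower differences, Prlr (-2.18 ± 0.24), Areg (-2.97 ± 0.27), Lgals7 (-3.61 ± 0.25, adjusted p = 3.27e-07, edgeR) and St6galnac2 (-2.10 ± 0.36) fell in AV cells with a smaller change or none called in HS cells. All 10 HS markers had a lower change in AV than in HS cells, a list that by its choice is high in the type compared with. Dcn, the fibroblast proteoglycan decorin, fell in AV cells from 187, 52.9 and 188 CPM to 29.9, 6.83, 9.87 and 20.3 CPM and rose in HS cells from 74.3, 48.7 and 66.9 CPM to 443, 302, 913 and 1873 CPM (difference -6.71 ± 0.52, adjusted p = 9e-07). For Upk3a (-5.27), a uroplakin, HS cells carried the change, from 6.004 to 42.3 CPM to 209.7 to 501 CPM, and AV cells showed none that was called (log2 fold change -0.90). Slc38a1 (-4.55), an amino acid transporter, Nrxn3 (-4.40), an adhesion protein of synapses, and Col6a3 (-3.90), a chain of collagen VI, were the next by size.

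**Figure D5:**
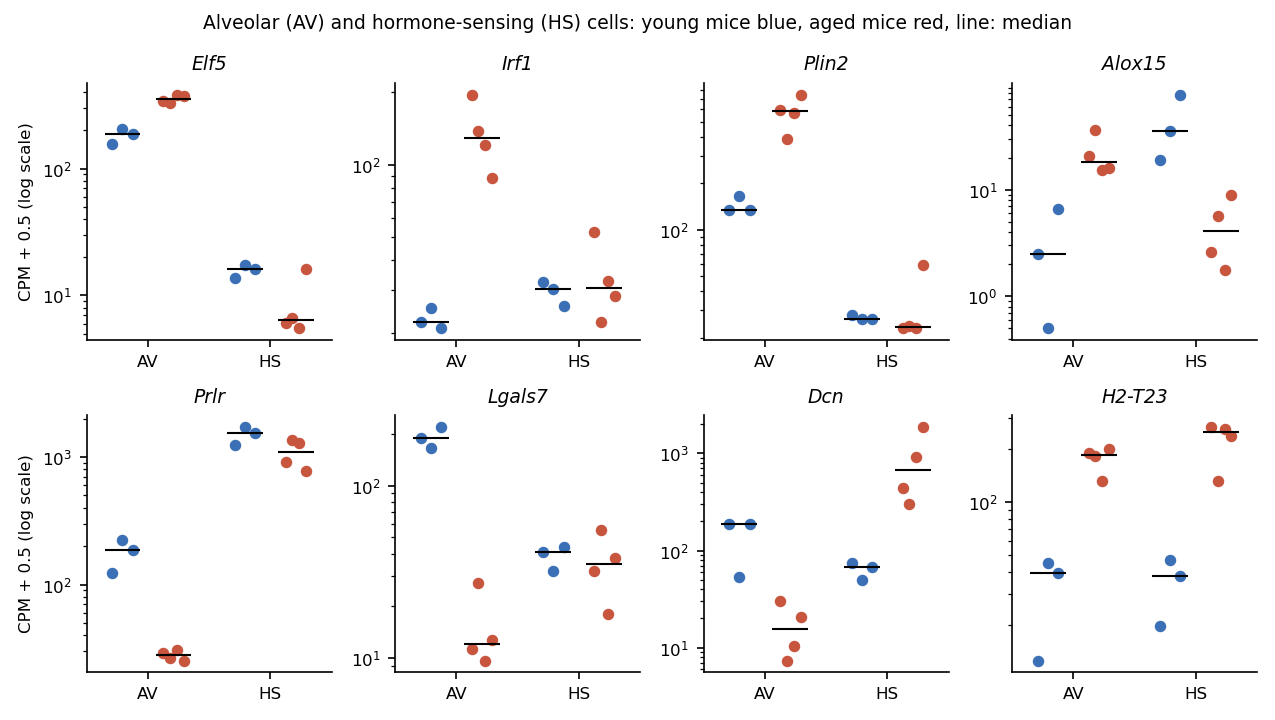
Level of 8 genes in the AV and the HS cells of each mouse (points, CPM + 0.5 on a log axis), with a line at the median of each age. AV values are scaled over the AV sums and HS values in the fit of both types; the ages separate in AV cells and overlap in HS cells for Elf5, Irf1 and Plin2, Alox15 and Dcn go in opposite directions in the 2 types, and H2-T23 is higher with age in both.

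Against myoepithelial cells, 324 of 9433 genes (3.43%) had a higher and 550 (5.83%) a lower change in AV cells. With median-ratio size factors in place of TMM these became 408 and 433, so the balance between the directions depends on the scaling. The myoepithelial sums held 187, 40 and 54 cells in the Young and 262, 662, 125 and 340 in the Aged mice, so low Young values carry much counting error. Pdk4 stood at 4.36, 29.3 and 53.5 CPM in Young and 22.5, 14.7, 9.47 and 20.01 CPM in Aged myoepithelial cells, ages that overlap, and its change was higher in AV cells by 4.41 ± 0.65 (edgeR adjusted p = 0.000475). Its myoepithelial values rest on 30 UMIs in the Young and 100 in the Aged mice. Angptl4 (2.98), Plin2 (1.68) and Cbr2 (2.71) also changed more in AV cells, so Pdk4, Plin2 and Angptl4 were among 11 higher genes whose change exceeded that of both other epithelial types. Mfge8 fell in myoepithelial cells, from 573, 448 and 490.4 CPM to 333, 375, 302 and 311 CPM, and its change was higher in AV cells by 1.50 ± 0.26 (adjusted p = 0.00154). C3, complement component 3, fell in myoepithelial cells from 54.4 to 80.2 CPM to 8.67 to 16.2 CPM, while its change in AV cells was not called (log2 fold change 0.64, difference 3.00 ± 0.37).

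Other differences from myoepithelial cells came mostly from the myoepithelial side. Aqp3, a water and glycerol channel, rose there from 16.7 to 27.9 CPM to 319 to 881 CPM and was not called in AV cells (log2 fold change -1.70, difference -6.12 ± 0.49, adjusted p = 1.18e-06, edgeR). Plet1 likewise rose there from 50.2 to 208 CPM to 2720.1 to 4215 CPM, with a log2 fold change of -0.05 in AV cells. Emp3, a membrane protein, was lower in AV cells (log2 fold change -4.02) and differed by -5.12 ± 0.56. Fitted differences with almost no counts on 1 side depend on the prior count, so counts are given. Slc5a8, a monocarboxylate transporter, had 0 UMIs in Young and 22 in Aged myoepithelial cells beside 181 and 606 in AV cells (fitted difference -6.77). Spns2, a sphingosine 1-phosphate exporter, had 0 and 36 beside 238 and 1785 (-6.30), Hamp, hepcidin, 4 and 339 beside 3 and 14 (-5.13), and Elovl4, a fatty acid elongase, 84 and 91 beside 0 and 13 (5.52).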

How the data were processed

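Whole glands of 7 mice were dissociated and profiled as 1 droplet library (10x Chromium 3′ kit, v2) per mouse. Per the labels and the study's methods, the authors mapped reads to mm10 with Cell Ranger 2.0, filtered cells by UMIs, genes and mitochondrial share, and deposited unnormalized UMI counts, 1 value for each gene in each cell. The deposited metadata give each cell's type (from Seurat clusters and markers), mouse, UMI and gene counts, the fraction of mitochondrial UMIs, and S and G2M phase scores with the phase call. A 3′ tag is counted once per molecule, so counts were not scaled by length. Red blood cells were lysed and no cell type was sorted.

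Counts of AV cells were summed per mouse. Genes were filtered with filterByExpr (minimum count 10), scaled with TMM and tested with edgeR's quasi-likelihood test (edgeR 4.0.16, limma 3.58.1, R 4.3.3), with calls made at an adjusted p under 0.05 (Benjamini-Hochberg) together with a change of at least 1.5-fold. A test of the difference in age change between AV cells and HS or myoepithelial cells used both sums of each mouse with the mouse as a block, and its levels are CPM scaled in that fit. Levels over all 13 cell types are CPM without TMM. Shares of cells with a UMI were taken after thinning each cell to 2000 UMIs where the text says so. Scrublet in scanpy 1.11.5 (expected rate 0.06) marked 20 of the AV cells as doublets, and they were kept except in 1 alternative. Single values per mouse were compared with an exact permutation test over the 35 divisions of the mice (Python 3.11.15, scipy 1.17.1). The fit was also run on simulated counts, drawn with the dispersions of the real fits. Alternatives were DESeq2 1.42.0, other size factors, no filter, no fold minimum, a fold in all pairs of mice, fewer gene classes, equal totals of 555978 UMIs per mouse, G1 cells alone, no doublets, a block and each mouse left out. The alternative with no fold minimum loosens the rule on the main fit. It cannot lose a call, and it counts as held for every called gene.

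Named genes were the identity markers, the 10 largest called changes in each direction among genes of at least 20 CPM whose ages did not overlap, up to 4 called members of each gene list, the 5 largest differences per direction against each other cell type, the most variable genes within AV cells, and the best known members of lists as values. Genes outside this rule were chosen after their values were seen: Plin2, Srebf1, Scd2, Lcn2, Folr1, H2-Q7, H2-D1, Cxcl16, and Barx2, Ehf and Sox10 among the levels by cell type. The members and the gene lists were chosen with earlier results of these data known. The letters A to C are names: residuals of same-lettered mice correlated at -0.35, -0.14 and 0.12, so they did not pair the samples. Sequences are from RefSeq promoters of GRCm38.p6, and 10 of 12 genes looked up had an entry.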

Additional observations from a re-analysis of the deposited data

Results flagged for a closer look

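In groups of 4 mice, a value was marked when its gap to the nearest other mouse exceeded Dixon's critical share of the group's range, and this was met in 7 of 110 groups checked, where chance gives about 1 in 20. Among Aged AV cells the gap was 0.844 of the range for Muc15 (Aged D low), 0.913 for Lyz2 (Aged A high), 0.862 for Il1b (Aged C low, at 0), 0.840 for Fn1 (Aged A high), 0.914 for Cldn5, an endothelial tight junction gene (Aged B low), 0.842 for Ttc36 (Aged A high) and 0.844 for Slc5a8 (Aged B high).

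A change with age that differed between AV and HS cells was found by edgeR's test of the difference for Saa1 (8.16 on the log2 scale), Alox15 (6.20), Spp1 (4.96), Ttc36 (4.64) and Ceacam10 (4.08), higher in AV cells, and for Dcn (-6.71), Upk3a (-5.27), Slc38a1 (-4.55), Nrxn3 (-4.40) and Col6a3 (-3.90), lower in AV cells. Against myoepithelial cells the same held for Elovl4 (5.52), Pdk4 (4.41), C3 (3.00), Angptl4 (2.98) and Cbr2 (2.71), higher in AV cells, and for Slc5a8 (-6.77), Spns2 (-6.30), Aqp3 (-6.12), Hamp (-5.13) and Emp3 (-5.12), lower in AV cells.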

How the results depend on the processing

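The direction of every called gene was kept under each alternative in which it could be tested, while the number of calls moved. Against 317 higher and 357 lower genes, DESeq2 called 482 higher (and 492 lower), equal totals of UMIs 111 and 59, G1 cells alone 169 and 171, and leaving out 1 mouse 60 to 323 and 138 to 291, lowest without Young C. Without Young A the counts were 104 and 175, without Young B 168 and 227, without Aged C 123 and 161, and without Aged D 209 and 213. Equal totals leave fewer UMIs and 4882 genes tested. For the other drops the cause was not tested. Genes with a higher change in AV than HS cells numbered 63, but 33 by DESeq2, 187 with no filter, 10 with no mouse block and 18 to 89 with 1 mouse left out. The lower ones numbered 172, but 327 with no filter, 40 with no mouse block and 65 to 205 with 1 mouse left out. Against myoepithelial cells the 324 higher became 532 with no filter, 181 with no mouse block and 83 to 356 with 1 mouse left out, and the 550 lower became 361 by DESeq2, 347 with no mouse block and 191 to 490.

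With the letters A to C as a replicate block, 205 genes were higher and 215 lower, of which 145 and 200 were among the calls without it. The same-lettered mice did not deviate together, so this is no paired design. The AV share of luminal cells differed by 53.1 to 63.0 points, the median mitochondrial share by -1.63 to -1.16 points, the median UMIs by 1432 to 1895 and the S or G2M share by -16.0 to -4.80 points with 1 mouse left out. In place of the phase call, cells with a UMI of Mki67 or Top2a differed by -1.95 points (exact permutation p = 0.34), and by -1.30 points with cells thinned to 2000 UMIs (p = 0.029). The thinned difference rests on few cells and 1 random draw. Young B, with 104 cells, limits what can be seen of low genes.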
